A study of Mus musculus with 9 samples.

Results

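Cxcl1, Cxcl2, Cxcl3, Cxcl5 and Cxcr2 are a set of neutrophil-attracting chemokines together with the receptor that reads them. They were taken by gene symbol from the deposited matrices, where they are 5 of 32285 genes (Cxcl1, ENSMUSG00000029380; Cxcl2, ENSMUSG00000058427; Cxcl3, ENSMUSG00000029379; Cxcl5, ENSMUSG00000029371; Cxcr2, ENSMUSG00000026180). Nuclear RNA from hearts of male wild-type mice, 9 to 10 weeks old, was profiled by single-nucleus RNA sequencing in 9 libraries. In the NS-Sham group (3 libraries) the chest was opened without coronary occlusion and the mice received normal saline. In the NS-I/R group (3 libraries) the left anterior descending coronary artery was occluded for 45 min and reperfused for 24 h, with saline. The Enpa-I/R group (3 libraries) had the same ischemia-reperfusion with enpatoran, an antagonist of the RNA-sensing receptor TLR7, at 5 mg/kg intraperitoneally in 2 doses. The first dose came 1 h before ischemia; the sample labels place the second right after ischemia, whereas the series design places it 2 h after the first. No sham group with enpatoran was among the samples analysed here, and both comparisons below share the NS-I/R libraries.

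CXCL1, CXCL2, CXCL3 and CXCL5 are small secreted proteins with a glutamate-leucine-arginine motif before their first cysteines. They bind CXCR2, a G protein-coupled receptor on neutrophils, and draw these cells from the blood into injured tissue. Their genes are rapidly induced through NF-kB by Toll-like receptors, interleukin-1 and TNF, and their messages are short-lived. In the infarcted heart neutrophils are the first white cells to enter. The ligand genes lie next to each other on mouse chromosome 5, in the order Cxcl5, Ppbp, Pf4, Cxcl3, Cxcl15, Cxcl1 and Cxcl2, and Cxcr2 lies on chromosome 1.

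The 100 bases before the annotated starts of the members are shown because 3 ligands share a letter-for-letter NF-kB motif there, while the receptor does not hold it. RefSeq promoters (build GRCm38.p6) matched 4 of the 5 members; Cxcl5 was not among them. Capitals mark matches to the NF-kB motif, GGGA and TTCC with any 2 bases between them, on either strand, whose overlapping matches on the 2 strands merge into 1 run, and to the TATA box TATAAA.
Cxcl1, chr5:90891145-90891244, plus strand: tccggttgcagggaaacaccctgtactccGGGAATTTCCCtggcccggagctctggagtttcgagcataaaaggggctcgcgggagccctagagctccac
Cxcl2, chr5:90903799-90903898, plus strand: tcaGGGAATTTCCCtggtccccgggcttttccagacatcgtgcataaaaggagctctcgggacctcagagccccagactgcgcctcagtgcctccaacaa
Cxcl3, chr5:90786001-90786100, plus strand: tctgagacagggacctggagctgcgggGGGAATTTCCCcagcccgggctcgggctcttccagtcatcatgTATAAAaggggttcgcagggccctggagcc
Cxcr2, chr1:74153894-74153993, plus strand: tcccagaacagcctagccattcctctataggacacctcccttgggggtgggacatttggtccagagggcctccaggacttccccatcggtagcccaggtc
On the gene's own strand the NF-kB match ran from 71 to 62 bases before the start of Cxcl1, from 97 to 88 before Cxcl2 and from 73 to 64 before Cxcl3. Over all 32851 promoters, 0.457% held the NF-kB motif in this window, 5.56% held TATAAA and 2.73% held the AP-1 motif TGANTCA. The TATA box was found in the Cxcl3 window alone of the 4, from 30 to 25 bases before its start, and the AP-1 motif in none of them. These matches are descriptions of the reference letters, and binding was not measured.

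The 9 libraries held 19651794 to 38970153 UMIs (unique molecular identifiers, each standing for 1 captured RNA molecule). After filtering, 41875 of 56766 barcodes were kept as nuclei, 3155 to 6448 per library, with a median of 2362 to 3252 UMIs. They fell into 26 clusters, of which 25 were named from marker genes as 13 classes. Cluster 25, led by the heat-shock genes Hspa1a, Hspa1b and Hsph1, stayed unnamed; it held 285, 98 and 37 nuclei in NS-I/R replicates 1, 2 and 3, from 2 to 6 in each Enpa-I/R library and 0 in sham. Pairs of libraries shared 0.0895% to 0.343% of their barcodes. NS-I/R replicates 1 and 2 carried more ligand UMIs than replicate 3 in most classes below, and the part of the heat-shock nuclei in this was not tested. NS-I/R replicate 3 stood apart in its neutrophil-like nuclei, and the tests that use those nuclei are given with and without it.

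The first comparison, NS-I/R against NS-Sham, asks what ischemia-reperfusion alone did to the 5 genes. All 5 rose over all nuclei. Values are CPM, the UMI count of a gene per total UMIs of its library on the usual parts-per-1e6 scale, with TMM library factors. Cxcl1 stood at 3.94, 2.53 and 2.84 CPM in the sham libraries and at 118.9, 70.5 and 36.9 CPM in the NS-I/R libraries. Cxcl5, also called LIX, was at 0.38, 0.84 and 0.60 CPM in sham and at 100.9, 89.7 and 57.6 CPM after NS-I/R. The lowest injured library was thus far above the highest sham library for both genes.

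Cxcl2, also called MIP-2, was at 0.32, 0.37 and 0.90 CPM in sham and at 166.8, 79.5 and 29.1 CPM in NS-I/R. Cxcl3 had 2 UMIs in all 13190 sham nuclei and reached 45.9, 26.0 and 21.8 CPM in NS-I/R. The receptor Cxcr2 was at 0.44, 0.24 and 0.22 CPM in sham and at 16.4, 8.31 and 22.1 CPM in NS-I/R. NS-I/R replicate 1 was highest for the 4 ligands, while replicate 3 was highest for the receptor. The groups did not overlap for any of the 5 genes, and the share of all genes without overlap was not counted.

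In edgeR's quasi-likelihood test over 18017 genes, the log2 fold change (hereafter log2 change) was 4.62 for Cxcl1 (SE 0.40, adjusted p = 2.39e-05), which is 24.6-fold. It was 7.54 for Cxcl2 (SE 0.76, adjusted p = 4.94e-05) and 6.98 for Cxcl5 (SE 0.29, adjusted p = 1.01e-06). Cxcr2 rose by 5.71 on the same scale (SE 0.58, adjusted p = 5.27e-05). For Cxcl3 the ratio of unscaled CPM values was 971, with a 95% counting interval of 269 to 8026 from the 2 sham UMIs, and edgeR's adjusted p was 5.71e-06. Of all genes tested over all nuclei, 24.7% were called higher. In a sum over nuclei, fewer cells of a type and less RNA per cell cannot be told apart, so the same genes are given by class below.

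**Figure D1:**
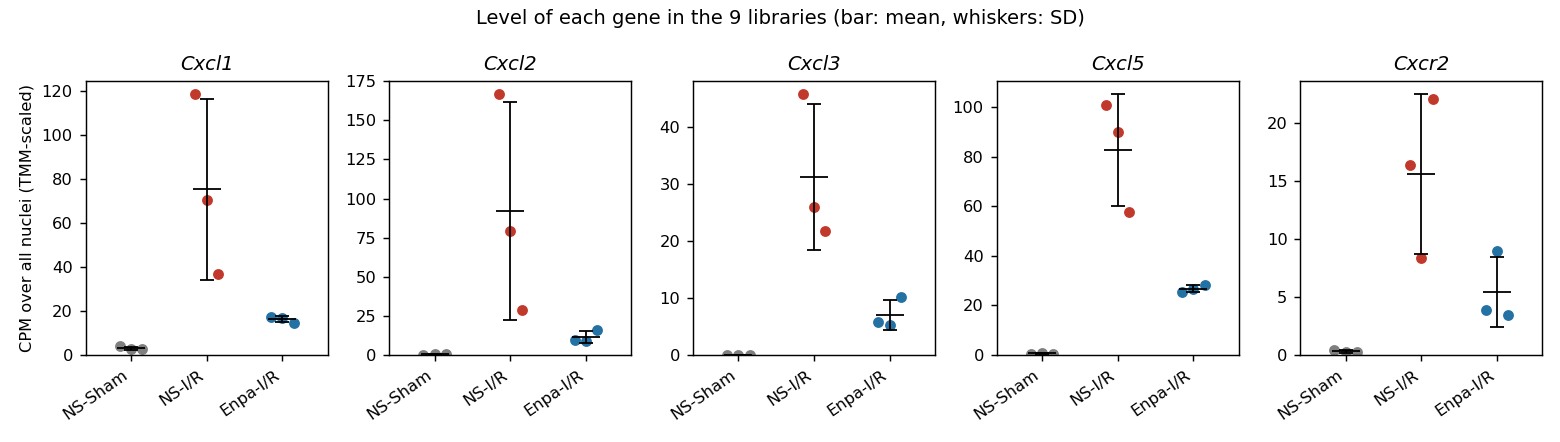
Level of the 5 genes over all nuclei in each of the 9 libraries (vertical axes: TMM-scaled CPM, linear, starting at 0, with a scale per gene), with group mean (bar) and SD (whiskers). The ligands were highest in NS-I/R replicate 1 and lower in every Enpa-I/R library than in any NS-I/R library, whereas the Cxcr2 value of 1 Enpa-I/R library, 8.91, lay above the lowest NS-I/R value, 8.31.

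Fibroblast-like nuclei were the main source of Cxcl1 and Cxcl5 after NS-I/R. They held 74.8% ± 1.85 of the Cxcl1 UMIs of a library (SD, n = 3) and 82.9% ± 2.13 of the Cxcl5 UMIs, while making up 21.1% ± 0.627 of nuclei. Cxcl1 stood at 1.21 ± 0.69 UMIs per fibroblast-like nucleus, with 0.542 to 1.92 across libraries. The next named class was the pericyte-like one, contractile cells of the capillary wall, at 0.287 ± 0.103. Pericyte-like nuclei and those after them in the order, Schwann cell-like at 0.267 ± 0.209, epicardial mesothelial-like, T or NK cell-like and smooth muscle-like, overlapped in their library ranges. Neutrophil-like nuclei carried 0.101 ± 0.0356 Cxcl1 UMIs each. The other 6 named classes were between 0.0424 and 0.0767. The unnamed heat-shock cluster held 0.375 ± 0.195 per nucleus.

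Cxcl5 was at 1.47 ± 0.488 UMIs per fibroblast-like nucleus, with no library of another class reaching the lowest fibroblast-like library at 0.912. Schwann cell-like nuclei followed at 0.194 ± 0.249 and pericyte-like nuclei at 0.131 ± 0.0443, and these overlapped. All remaining classes lay between 0.0196 and 0.115 UMIs per nucleus.

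Cxcl2 had no single main source after NS-I/R. Macrophage-like nuclei held 26.8% ± 7.02 of its UMIs, fibroblast-like nuclei 26.3% ± 9.52 and neutrophil-like nuclei 24.0% ± 1.57. Per nucleus, the level was 1.14 ± 0.871 UMIs in neutrophil-like, 1.1 ± 0.643 in macrophage-like and 0.605 ± 0.560 in fibroblast-like nuclei. The ranges of these 3 classes over libraries overlapped. Within each of the 3 libraries fibroblast-like nuclei were lowest, with 1.20, 0.526 and 0.0888 UMIs per nucleus against 1.74, 1.11 and 0.450 in macrophage-like and 1.99, 1.17 and 0.251 in neutrophil-like nuclei. T or NK cell-like nuclei, 90 in all, were at 0.588 ± 0.359, B cell-like nuclei at 0.297 ± 0.162 and pericyte-like nuclei at 0.264 ± 0.137. The remaining named classes were between 0.0490 and 0.174. The unnamed heat-shock cluster held 0.557 ± 0.642 Cxcl2 UMIs per nucleus. In NS-I/R replicate 3 it held 1.30 per nucleus, from 48 UMIs in 37 nuclei, above the values given for that library.

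The largest part of Cxcl3, 40.8% ± 7.72 of its UMIs, came from macrophage-like nuclei, ahead of neutrophil-like nuclei at 22.0% ± 6.98 and fibroblast-like nuclei at 18.9% ± 4.04. Macrophage-like nuclei carried 0.614 ± 0.182 Cxcl3 UMIs each and neutrophil-like nuclei 0.363 ± 0.225, with overlapping libraries. T or NK cell-like nuclei were at 0.214 ± 0.271 and fibroblast-like nuclei at 0.126 ± 0.0561, and the rest were between 0.0276 and 0.117.

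Cxcr2 UMIs were held by neutrophil-like nuclei to 66.6% ± 3.17 after NS-I/R. Its level was 0.472 ± 0.118 UMIs per neutrophil-like nucleus, 0.148 ± 0.191 in T or NK cell-like and 0.141 ± 0.0829 in B cell-like nuclei, and at most 0.0666 in every other class. The lowest neutrophil-like library, 0.336, lay below the highest T or NK cell-like library, 0.368, a class with few nuclei.

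**Figure D2:**
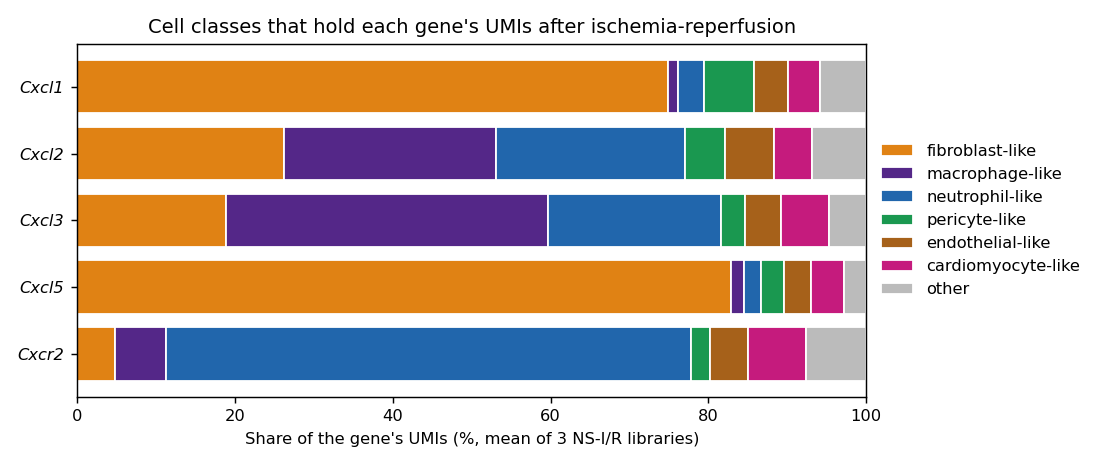
Share of each gene's UMIs held by each cell class (horizontal axis: percent of the gene's UMIs, mean of the 3 NS-I/R libraries; colours: classes, the rest pooled as other). Fibroblast-like nuclei hold most of Cxcl1 (74.8%) and Cxcl5 (82.9%), macrophage-like nuclei the largest part of Cxcl3 (40.8%), and neutrophil-like nuclei most of Cxcr2 (66.6%).

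Low levels appeared in every class after ischemia-reperfusion, and RNA of neutrophils did so too. The 9 neutrophil markers (S100a8, S100a9, Retnlg, Csf3r, Mmp9, Trem1, Hdc, Il1r2 and G0s2) summed to 11.2 UMIs per neutrophil-like nucleus in NS-I/R. In cardiomyocyte-like, endothelial-like, endocardial-like and lymphatic endothelial-like nuclei the same sum ranged from 0.0364 to 0.0942 in sham, from 0.325 to 0.685 in NS-I/R and from 0.155 to 0.484 in Enpa-I/R. These 4 classes, with median depths of 1612 to 8484 UMIs in NS-I/R, held 0.0417 to 0.0752 Cxcl1 UMIs, 0.0458 to 0.112 Cxcl2 UMIs, 0.0403 to 0.0831 Cxcl5 UMIs and 0.0152 to 0.0275 Cxcr2 UMIs per nucleus. For every neutrophil marker UMI they held 0.0378 to 0.0513 Cxcr2 UMIs, and neutrophil-like nuclei held 0.0428. The ratio of Cxcl1 to neutrophil marker UMIs was 2.29 in fibroblast-like nuclei, 0.0949 to 0.174 in these 4 classes and 0.00877 in neutrophil-like nuclei. Values at the level of these 4 classes are called background here, and so is the Cxcr2 of fibroblast-like nuclei, at 0.0155 ± 0.00684. Whether these values came from free RNA or from expression in the nuclei themselves was not tested.

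By class, all 23 tests that passed the low-count filter were called higher in NS-I/R than in sham. The members tested were 5 each in cardiomyocyte-like, fibroblast-like and macrophage-like nuclei and 4 each in endothelial-like and pericyte-like nuclei. None passed the filter in endocardial-like, lymphatic endothelial-like or smooth muscle-like nuclei, and sham held only 5 neutrophil-like nuclei, so that class was not tested. Of all genes, 24.2% were called higher in cardiomyocyte-like, 18.2% in endothelial-like, 23.4% in fibroblast-like, 17.6% in macrophage-like and 12.2% in pericyte-like nuclei. A member low in sham passed the filter through the injured groups, so the count of 23 is a description.

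In fibroblast-like nuclei Cxcl1 was already present in sham, at 18.8, 9.59 and 14.7 CPM, and reached 505.4, 287.6 and 133.0 CPM in NS-I/R, with a log2 change of 4.49 (SE 0.45, edgeR's adjusted p = 1.38e-05). Cxcl5 there went from 2.45, 4.39 and 4.04 CPM to 478.7, 413.5 and 223.7 CPM, a log2 change of 6.61 (SE 0.33, edgeR's adjusted p = 3.14e-07). Sham fibroblast-like nuclei already held 71.5% ± 6.58 of the Cxcl1 UMIs. Cxcl3 was at 0 UMIs in all 2762 sham fibroblast-like nuclei and rose at least 108-fold, counted against a floor of 3 UMIs over the group.

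In macrophage-like nuclei Cxcl3 was likewise at 0 UMIs in 823 sham nuclei and rose at least 170-fold, to 335.0, 213.2 and 195.4 CPM. Cxcl2 there was at 7.99, 6.91 and 0 CPM in sham and at 708.9, 435.2 and 184.3 CPM after NS-I/R, a log2 change of 6.18 (SE 0.67, edgeR's adjusted p = 5.69e-06). Cxcl2 was also at 0 UMIs in 1170 sham pericyte-like nuclei and rose there at least 109-fold. These floors and the counting intervals cover counting error only.

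The second comparison, Enpa-I/R against NS-I/R, asks how the TLR7 antagonist changed the injured heart. Over all nuclei the 5 genes fell. Cxcl2 was at 9.81, 8.74 and 16.2 CPM with enpatoran, 7.93-fold lower than in NS-I/R (log2 change -2.99, SE 0.54, edgeR's adjusted p = 0.0125). Cxcl1 was at 17.1, 17.0 and 14.8 CPM, 4.62-fold lower (-2.21, SE 0.35, edgeR's adjusted p = 0.00897). Both were lower in each Enpa-I/R library than in any NS-I/R library.

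Cxcl3 was at 5.77, 5.26 and 10.1 CPM, a log2 change of -2.15 (SE 0.32, edgeR's adjusted p = 0.00825). Cxcl5 was at 25.4, 26.5 and 28.3 CPM, a log2 change of -1.63 (SE 0.21, edgeR's adjusted p = 0.00493). Enpa-I/R libraries differed little among themselves for Cxcl1 and Cxcl5, with SDs of 1.31 and 1.45 CPM against 41.2 and 22.5 CPM in NS-I/R. They stayed above sham for all 4 ligands.

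Cxcr2 was at 3.89, 8.91 and 3.47 CPM and overlapped the NS-I/R libraries (log2 change -1.53, SE 0.41, edgeR's adjusted p = 0.0339). Of all genes tested, 9.63% were called lower over all nuclei. Its call was lost without Enpa-I/R replicate 1 or 3, NS-I/R replicate 1 or any sham library, with adjusted p between 0.0522 and 0.122 in those fits, while that of Cxcl2 was lost without Enpa-I/R replicate 1, at 0.0612.

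By class, 18 of 23 member tests outside neutrophil-like nuclei were called lower with enpatoran and 0 higher. Where a member passed the low-count filter only through its level in NS-I/R, a fall was favoured, so the counts per class are descriptions as well. Fibroblast-like nuclei, the main source of Cxcl1 and Cxcl5, had 4 of 5 called lower against 5.89% of all genes. Cxcl1 was at 85.7, 68.2 and 61.8 CPM there, 4.27-fold lower than in NS-I/R (log2 change -2.09, SE 0.37, edgeR's adjusted p = 0.0143). Cxcl5 was at 126.0, 108.9 and 118.2 CPM, 3.15-fold lower (-1.66, SE 0.23, edgeR's adjusted p = 0.00661). Cxcl2 fell most of the 5 genes, from 316.0, 129.6 and 21.8 CPM to 8.41, 7.18 and 7.68 CPM (-4.31, SE 0.79, edgeR's adjusted p = 0.0148). The NS-I/R libraries spread widely for Cxcl2, and the lowest of them still lay above each Enpa-I/R library. Cxcl3 had a log2 change of -2.33 (SE 0.43, edgeR's adjusted p = 0.0174).

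Macrophage-like nuclei had 2 of 5 members called lower against 3.31% of all genes. Cxcl2 went to 122.5, 82.8 and 251.6 CPM (log2 change -1.56, SE 0.41, edgeR's adjusted p = 0.0354) and Cxcl3 to 76.9, 45.1 and 140.8 CPM (-1.53, SE 0.32, edgeR's adjusted p = 0.0153). Enpa-I/R replicate 3 lay above the lowest NS-I/R library, 184.3 CPM, for Cxcl2, and no Enpa-I/R library overlapped for Cxcl3. Cxcl1, Cxcl5 and Cxcr2 were low in this class, with log2 changes of -1.31, -0.91 and -1.81 and edgeR's adjusted p of 0.124, 0.321 and 0.0614. Macrophage-like nuclei held 64.2% ± 9.72 of the Cxcl2 UMIs with enpatoran, against 26.8% ± 7.02 in NS-I/R, and 60.8% ± 4.05 of the Cxcl3 UMIs.

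Pericyte-like nuclei had 3 of 4 tested members called lower against 2.92% of all genes. Cxcl2 fell from 146.9, 115.6 and 50.2 CPM to 4.07, 1.45 and 8.07 CPM (log2 change -4.42, SE 0.49, edgeR's adjusted p = 0.00084). Cxcl1 fell from 131.4, 138.2 and 73.1 CPM to 19.3, 23.3 and 29.99 CPM (-2.23, SE 0.31, edgeR's adjusted p = 0.00176). Cxcl5 was at 32.3, 53.6 and 75.2 CPM in NS-I/R and at 41.7, 53.8 and 36.9 CPM with enpatoran, fully overlapping (-0.30, SE 0.29, 95% interval -0.87 to 0.27, edgeR's adjusted p = 0.576).

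In endothelial-like nuclei 4 of 4 tested members were called lower against 4.1% of all genes, with log2 changes of -2.04 for Cxcl1, -3.42 for Cxcl2, -2.55 for Cxcl3 and -2.02 for Cxcl5. In cardiomyocyte-like nuclei 5 of 5 were called lower against 11.3% of all genes, from -3.49 for Cxcl2 to -1.49 for Cxcl5. Levels in these 2 classes are the ones given above as background, and the neutrophil marker sum fell with them; the part of free RNA in these 9 calls was not tested. The count of 18 depended on the libraries: it was 5 of 28 without Enpa-I/R replicate 1, 7 of 28 without replicate 2 or without replicate 3, and 6 of 24 without NS-I/R replicate 1. It was 12 of 23 in a fit of the 6 injured libraries alone. The shares of all genes called in these fits were not set beside these counts. A loss of calls particular to the members cannot be read from them.

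**Figure D3:**
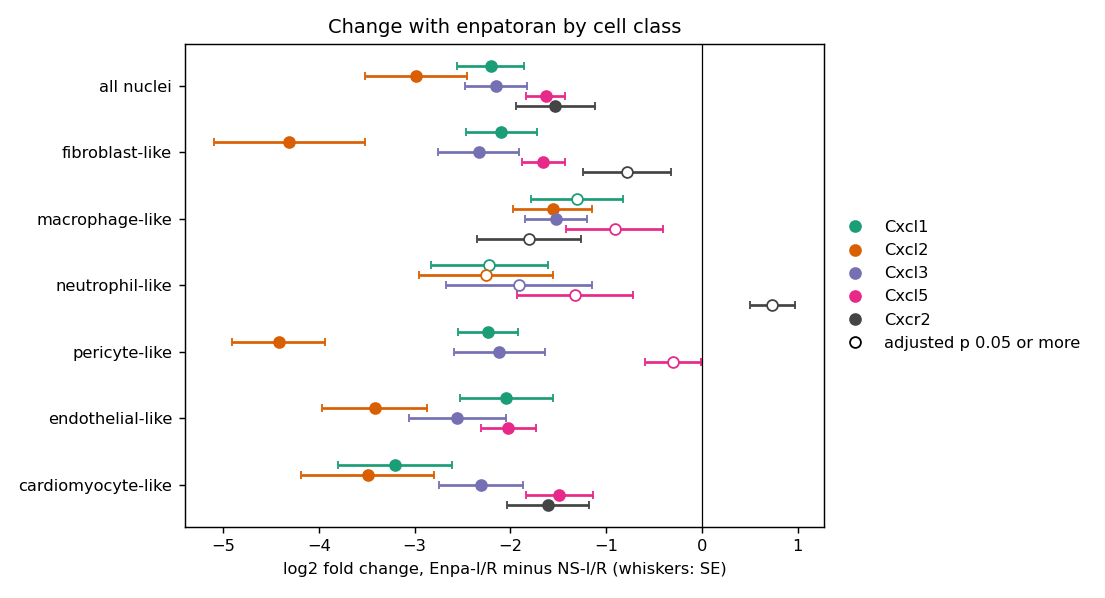
Change of each gene with enpatoran by cell class (horizontal axis: log2 change, Enpa-I/R minus NS-I/R, edgeR; whiskers: SE; open circles: adjusted p of 0.05 or more). Cxcl2 lies farthest to the left in fibroblast-like (-4.31) and pericyte-like (-4.42) nuclei, Cxcl5 in pericyte-like nuclei lies near 0 (-0.30), and Cxcr2 in neutrophil-like nuclei lies to the right of 0 (0.73).

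Whether the change with enpatoran differed between classes was tested for 4 pairs of classes chosen after the values were seen, in edgeR fits of both classes with library as a block. Cxcl2 fell more in fibroblast-like than in macrophage-like nuclei, by -2.31 in log2 (SE 0.41, adjusted p = 0.00498), where 2.01% of all genes differed in either direction. It also fell more in fibroblast-like than in neutrophil-like nuclei, by -1.64 (SE 0.37, edgeR's adjusted p = 0.00209), against 3.21% of genes. For Cxcr2 the change in macrophage-like nuclei was 2.40 lower than in neutrophil-like nuclei (log2 difference -2.40, SE 0.45, edgeR's adjusted p = 0.000796), against 2.32% of genes. The Cxcr2 change was not called in either class (edgeR's adjusted p = 0.0614 and 0.107). Macrophage-like Cxcr2 was low, at 0.0508 ± 0.0273 UMIs per nucleus in NS-I/R and 0.0178 ± 0.0131 with enpatoran. The background classes held 0.0152 to 0.0275 in NS-I/R. The part of free neutrophil RNA in this difference was not tested. For Cxcl5 the difference between fibroblast-like and pericyte-like nuclei was -1.30 (SE 0.39) and was not called (edgeR's adjusted p = 0.182), against 0.428% of genes. The first Cxcl2 difference was -1.83 with an adjusted p of 0.0600 without Enpa-I/R replicate 3. The second had an adjusted p of 0.0579 without NS-I/R replicate 1, 0.139 without Enpa-I/R replicate 1 and 0.103 without Enpa-I/R replicate 3. Without NS-I/R replicate 3 it was -1.68 (edgeR's adjusted p = 0.000214), and the Cxcr2 difference was -1.79 (edgeR's adjusted p = 0.0135).

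Within the fibroblast-like class, most ligand UMIs of the NS-I/R libraries sat in 1 of 4 clusters, which were formed without the 5 members and the pathway genes. Cluster 20, led by Tnc (tenascin-C, a matrix protein of healing tissue), Bnc2, Adam12 and Col8a1, held 1480 NS-I/R nuclei, 890 Enpa-I/R nuclei and 4 sham nuclei. Cluster 5, led by Pcdh9 and Abca8a, held 2584 sham, 713 NS-I/R and 1470 Enpa-I/R nuclei, and cluster 24, led by C7 and Svep1, held 1, 788 and 69. In NS-I/R, cluster 20 contained 93.8% of the fibroblast-like Cxcl1 UMIs, 96.8% of the Cxcl5 UMIs, 92.8% of the Cxcl2 UMIs and 85.4% of the Cxcl3 UMIs. With enpatoran it contained 89.2% of the Cxcl1 UMIs, 98.4% of the Cxcl5 UMIs and 79.7% of the Cxcl3 UMIs, whereas in sham 122 of 123 Cxcl1 UMIs and 34 of 36 Cxcl5 UMIs lay in cluster 5. Cluster 20 had 2.40 Cxcl1 UMIs and 3.06 Cxcl5 UMIs per nucleus in NS-I/R, and 0.816 and 1.46 with enpatoran. Cxcl2 was at 1.16 UMIs per nucleus there in NS-I/R and at 0.0798 with enpatoran.

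By library, Cxcl1 in cluster 20 was at 1136, 598.8 and 243.7 CPM in NS-I/R and at 183.4, 137.8 and 131.9 CPM in Enpa-I/R. Cxcl5 was at 1117, 902.2 and 408.9 CPM and at 294.4, 249.9 and 274.9 CPM. Neither gene overlapped between the groups. The log2 changes were -2.12 for Cxcl1, -4.48 for Cxcl2, -2.36 for Cxcl3 and -1.57 for Cxcl5, near those of the whole class. In this fit edgeR called 0 of 10874 genes, with 2735 at an unadjusted p under 0.05, and the 4 ligands had adjusted p of 0.0678 to 0.0685.

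Cluster 5 carried Cxcl1 at a low level in all 3 groups, with 0.0472 UMIs per nucleus in sham, 0.0435 in NS-I/R and 0.0524 with enpatoran. Its Cxcl1 values were 23.4, 23.5 and 8.33 CPM in NS-I/R and 16.1, 19.1 and 11.6 CPM in Enpa-I/R (log2 change 0.02, SE 0.42, edgeR's adjusted p = 0.995). These values overlapped, and the 95% interval of the change ran from -0.80 to 0.84. The other ligands lay lower in cluster 5 with enpatoran but were not called. The log2 change there was -2.16 for Cxcl3 (SE 0.55, edgeR's adjusted p = 0.192) and -1.96 for Cxcl5 (SE 0.48, edgeR's adjusted p = 0.175). Cxcl2 was not tested there, and its mean was 20.2 CPM in NS-I/R and 2.64 CPM with enpatoran, from 29 and 13 UMIs.

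The macrophage-like class held 2 clusters. Cluster 13, led by F13a1, Arg1 (arginase, induced in wound macrophages), Msr1 and Tgfbi, held 49 sham, 758 NS-I/R and 441 Enpa-I/R nuclei. Cluster 7, led by F13a1, as cluster 13 was, and by Mrc1 and Cd163, markers of resident cardiac macrophages, held 774, 614 and 679. Cluster 13 contained 80.1% of the macrophage-like Cxcl2 UMIs and 95.9% of the Cxcl3 UMIs in NS-I/R. In sham its 49 nuclei held 0 UMIs of all 5 members.

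Cxcl3 in cluster 13 was at 671.3, 414.2 and 306.0 CPM in NS-I/R and at 196.9, 115.2 and 321.4 CPM with enpatoran. Its log2 change was -1.15 (SE 0.35, edgeR's adjusted p = 0.127) and that of Cxcl2 was -1.39 (SE 0.45, edgeR's adjusted p = 0.145). Enpa-I/R replicate 3 overlapped the NS-I/R libraries for both, and neither was called. Cxcl2 in cluster 7 had a log2 change of -1.26 (SE 0.56, edgeR's adjusted p = 0.288).

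**Figure D4:**
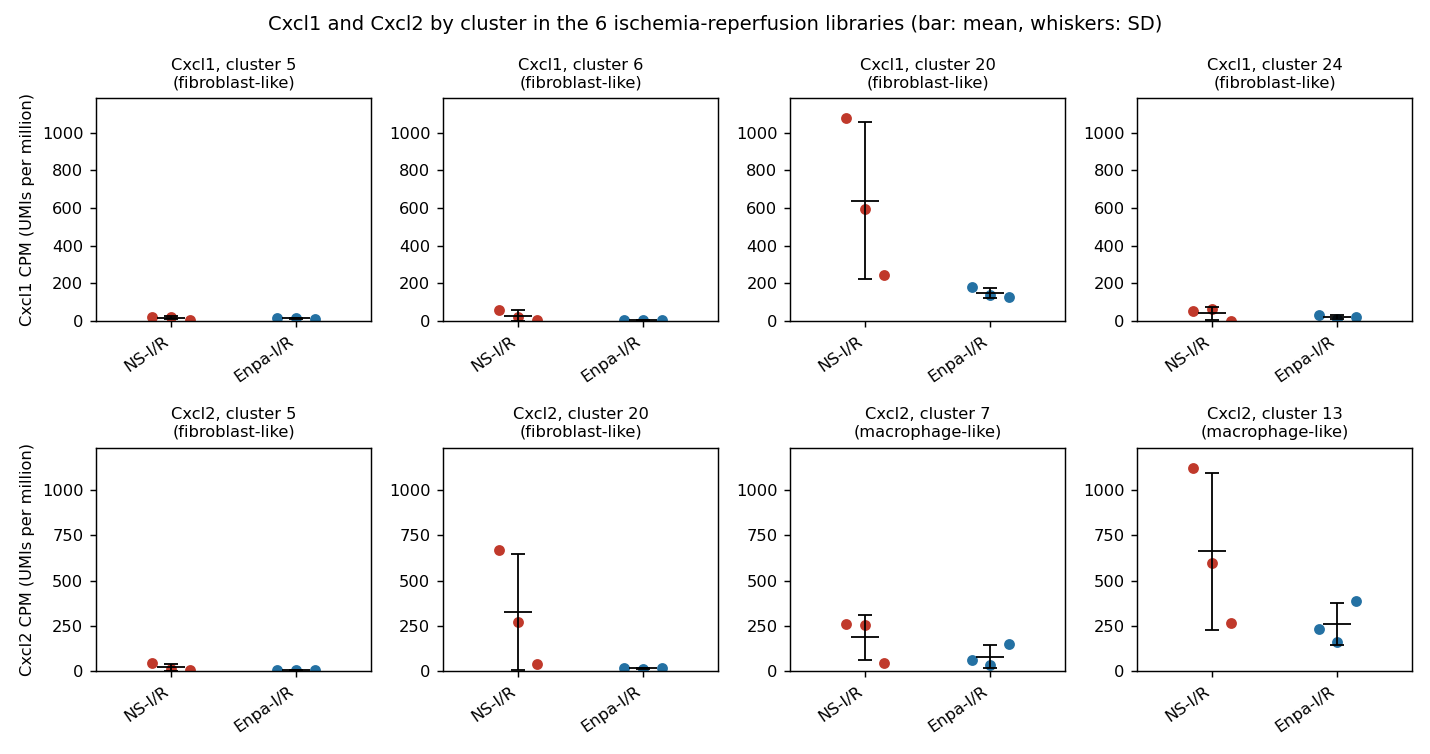
Cxcl1 (upper row) and Cxcl2 (lower row) by cluster in the 6 ischemia-reperfusion libraries (vertical axes: CPM of the cluster's summed UMIs, not TMM-scaled, starting at 0; points: libraries; bar and whiskers: mean and SD). Cxcl1 is high in cluster 20 alone of the 4 fibroblast-like clusters, with a mean of 640 CPM in NS-I/R and 149 CPM in Enpa-I/R, and Cxcl2 is high in clusters 20 and 13.

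The fall was also seen as fewer nuclei with a ligand UMI. With every nucleus thinned to 1000 UMIs, 16.4% ± 8.08 of fibroblast-like nuclei held a Cxcl1 UMI in NS-I/R and 4.64% ± 0.866 with enpatoran (27.2% and 10.9% unthinned), against 1.17% ± 0.237 in sham. For Cxcl5 these shares were 17.7% ± 3.32 and 6.12% ± 0.795, and for Cxcl2 in macrophage-like nuclei 22.0% ± 10.3 and 7.13% ± 4.50. Cxcl3 was found in 16.2% ± 3.32 of thinned macrophage-like nuclei in NS-I/R and in 5.02% ± 2.51 with enpatoran. The classes taken as background were thinned to the same depth in NS-I/R. A Cxcl1 UMI was held by 0.996% of cardiomyocyte-like, 3.31% of endothelial-like, 2.54% of endocardial-like and 1.38% of lymphatic endothelial-like nuclei. A Cxcl2 UMI was held by 0.972%, 4.94%, 2.39% and 0.513% of them, in the same order. Exact permutation tests of 3 against 3 libraries cannot go below a two-sided p of 0.1, which these reached where the groups did not overlap; over 85 such tests the smallest adjusted value was 0.167.

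Ligand UMIs were concentrated in few nuclei. In NS-I/R, the top 5% of fibroblast-like nuclei, 163 nuclei, held 54.8% of the Cxcl1 UMIs, and 1 nucleus held 78. For Cxcl5 the same share was 55.6%, with at most 59 UMIs in a nucleus, and for Cxcl2 in macrophage-like nuclei it was 48.8%. A second ligand was found in a larger share of the nuclei that held the first. Among 1406 thinned cluster 20 nuclei of NS-I/R, 53.0% of the 438 with a Cxcl1 UMI also held Cxcl5, against 27.5% of those without. Cxcl2 was present in 29.0% of the nuclei with Cxcl1 and in 7.33% of those without. In cluster 13, 49.3% of nuclei with a Cxcl2 UMI held Cxcl3, against 17.1% of the others. These shares pool the nuclei of 3 libraries whose levels differ, and have no test.

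Neutrophil-like nuclei, which carry the receptor, were 1, 2 and 2 in the sham libraries, 439, 408 and 593 after NS-I/R, and 118, 156 and 63 when enpatoran was given. Their share of nuclei was 0.0401% ± 0.0171 in sham, 9.36% ± 1.5 in NS-I/R and 2.81% ± 1.89 with enpatoran (exact permutation p = 0.1 in each comparison, the smallest that 3 against 3 can give). The groups did not overlap in either comparison. The class was named from the 9 neutrophil markers, all detected in both injured groups, so their presence is no separate support for the name.

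Within these nuclei the receptor did not follow its sum over all nuclei. Cxcr2 was at 343.7, 249.5 and 257.4 CPM in NS-I/R and at 403.4, 498.2 and 521.6 CPM with enpatoran, so that each Enpa-I/R library lay above each NS-I/R library. The log2 change was 0.73 (SE 0.24, 95% interval 0.27 to 1.20), which did not pass the threshold (edgeR's adjusted p = 0.107). With thinning to 1000 UMIs, 22.0% ± 3.86 of neutrophil-like nuclei held a Cxcr2 UMI in NS-I/R and 40.5% ± 2.04 with enpatoran (33.0% and 42.7% unthinned), against 0.170% and 0.184% of cardiomyocyte-like nuclei. By library the thinned shares were 25.8%, 18.1% and 22.1% in NS-I/R replicates 1, 2 and 3 and 42.9%, 39.6% and 39.1% with enpatoran, so the groups did not overlap with or without NS-I/R replicate 3. Thinning left out 543 of 1440 and 167 of 337 nuclei, whose median depths were 1170 and 1009 UMIs. The neutrophil marker sum was 11.2 UMIs per nucleus after NS-I/R and 16.7 with enpatoran, and its part in the Cxcr2 values was not tested. The makeup of the class by finer clusters, given below, also differed between the groups, and its part was not tested either.

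The ligands in neutrophil-like nuclei lay lower with enpatoran but were not called. Cxcl2 was at 1274, 868.8 and 119.5 CPM in NS-I/R and at 211.6, 52.4 and 260.8 CPM with enpatoran (log2 change -2.25, SE 0.70, edgeR's adjusted p = 0.0928). Cxcl3 was at 358.3, 304.2 and 56.1 CPM and at 132.3, 4.37 and 72.4 CPM (-1.91, SE 0.76, edgeR's adjusted p = 0.188). NS-I/R replicate 3 lay within the range of the Enpa-I/R libraries for both. Cxcl1 was at 90.3, 67.4 and 34.5 CPM and at 6.61, 17.5 and 14.5 CPM (-2.22, SE 0.61, edgeR's adjusted p = 0.0645). In this class edgeR and DESeq2 each called 0 of the 5 members, and edgeR called 1.14% of all genes lower. An unadjusted edgeR p under 0.05 was reached by 5 of 5 members, Cxcr2 as a rise, and by 1325 of all 6826 genes. Without NS-I/R replicate 3, edgeR called Cxcl1 (log2 change -2.54, adjusted p = 0.00124), Cxcl2 (-2.86, 2.91e-06) and Cxcl3 (-2.46, 0.000326) lower and Cxcr2 higher (0.66, 0.0242), and Cxcl5 was not called. That library was singled out after its values were seen. With each library left out in turn, 0 to 3 members were called lower. The share of all genes called in these fits was not set beside these calls, so a gain particular to the members cannot be read from them.

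In a separate, finer clustering (Leiden resolution 2), the nuclei named neutrophil-like, a set of slightly different size from the class above, lay in cluster 31, led by Csf3r, Il1r2, Chil3 and S100a9, and cluster 32, led by Il18rap and Lilr4b. Cluster 31 made up 6.39%, 5.30% and 50.3% of them in NS-I/R replicates 1, 2 and 3 and 75.6%, 80.9% and 75.4% in the Enpa-I/R libraries. NS-I/R replicate 3 stood apart from the other NS-I/R libraries and held 300 of their 350 cluster 31 nuclei, so values are given within libraries. Cxcl2 in NS-I/R replicates 1, 2 and 3 was at 2.07, 1.20 and 0.249 UMIs per nucleus in cluster 32 and at 1.04, 0.318 and 0.187 in cluster 31. Per nucleus, Cxcl2 was higher in cluster 32 in each of the 3, by the least in replicate 3. In CPM the order was reversed in replicate 3, at 92.4 in cluster 32 and 115.0 in cluster 31. The median depths there were 1997 and 994.5 UMIs. Replicates 1 and 2 kept the order in CPM. Cxcr2 was at 0.537, 0.341 and 0.407 UMIs per nucleus in cluster 32 and at 0.607, 0.227 and 0.663 in cluster 31, with no common order across the 3 libraries. In the Enpa-I/R libraries, with 16 to 30 cluster 32 nuclei each, Cxcr2 was at 0.414, 0.5 and 0.250 in cluster 32 and at 0.533, 0.780 and 0.653 in cluster 31. In CPM, cluster 32 had 311.1, 230.2 and 151.1 in NS-I/R and 175.9, 154.9 and 129.2 with enpatoran, which overlapped. Cluster 31 had 392.6, 162.8 and 408.7 in NS-I/R, from 28, 22 and 300 nuclei, and 492.9, 640.5 and 661.1 with enpatoran. The higher Cxcr2 of the class with enpatoran was thus seen in cluster 31 and not in cluster 32. These values have no test.

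**Figure D5:**
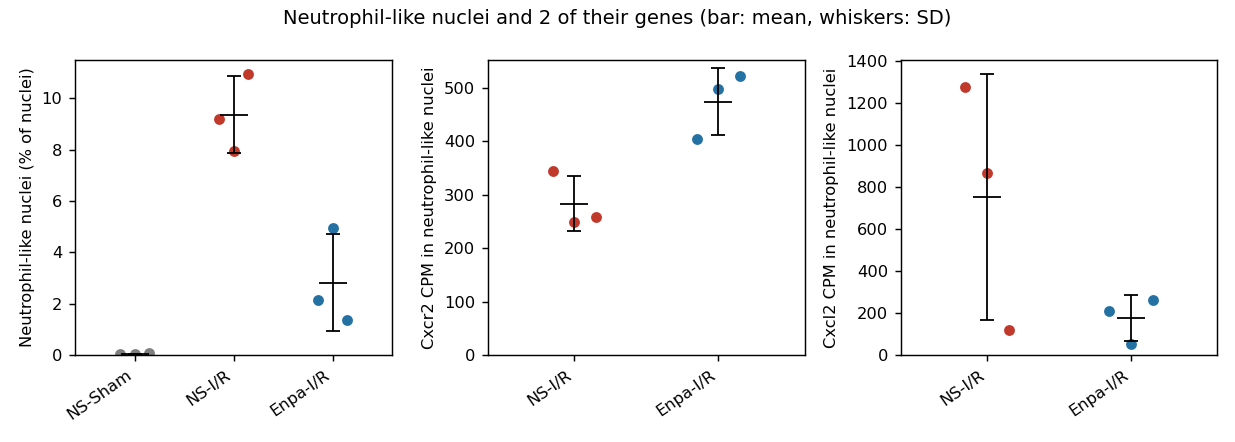
Share of nuclei that were neutrophil-like in the 9 libraries, and Cxcr2 and Cxcl2 in these nuclei in the 6 ischemia-reperfusion libraries (vertical axes: percent of nuclei, and CPM of the summed UMIs with TMM scaling, all starting at 0; bar and whiskers: mean and SD). The share falls from a mean of 9.36% to 2.81% with enpatoran, Cxcr2 is higher in each Enpa-I/R library, and the lowest NS-I/R library for Cxcl2 lies within the Enpa-I/R range.

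A list of 37 genes around this axis was read in the same fits, of which 32 were tested over all nuclei; Cxcl15, Cxcr1, Il1a, Il17a and Csf3 were too low. With NS-I/R 24 of the 32 were called higher and 1 lower, with a median log2 change of 1.57 against 0.02 over all genes, of which 24.7% were called higher and 23.1% lower. In macrophage-like nuclei 15 of 30 were called higher and 4 lower, against 17.6% and 16.3% of all genes. In fibroblast-like nuclei 13 of 19 were called higher and 2 lower, against 23.4% and 23.5%. Among the neighbours of the ligand genes, Ppbp, another CXCR2 ligand, was at 0 in sham macrophage-like nuclei and at 34.3 ± 17.9 CPM in NS-I/R, and had reached the test only through the injured groups. Pf4, platelet factor 4, rose there from 65.0 ± 20.8 to 181 ± 57.9 CPM (log2 change 1.56, SE 0.26, edgeR's adjusted p = 0.000262).

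Among inducers, the interleukin-1 receptor gene Il1r1 rose in fibroblast-like nuclei from 382 ± 42.6 to 812 ± 276 CPM (1.09, SE 0.21, edgeR's adjusted p = 0.00142), and Tlr4 in cardiomyocyte-like nuclei from 326 ± 20.3 to 666 ± 69.5 CPM (1.03, SE 0.12, edgeR's adjusted p = 0.000154). The macrophage-like values of Pf4, Tlr7 and C5ar1 compare nuclei of different clusters, since cluster 7 held 94.1% of the class in sham and 45.3% in NS-I/R. Tlr7, a target of enpatoran, fell in macrophage-like nuclei from 216 ± 49.6 to 126 ± 22.1 CPM (-0.80, SE 0.19, edgeR's adjusted p = 0.00378). Of the endothelial adhesion genes, Selp (P-selectin) rose in endocardial-like nuclei from 14.9 ± 6.54 to 420 ± 231 CPM (4.62, SE 0.74, edgeR's adjusted p = 0.000736) and Icam1 from 78.5 ± 48.3 to 172 ± 29.9 CPM (1.23, SE 0.31, edgeR's adjusted p = 0.0168). Sele (E-selectin) was at 14.5 ± 20.7 and 33.3 ± 12.9 CPM there and was not called (1.57, SE 0.98, edgeR's adjusted p = 0.348). C5ar1, the receptor for complement fragment C5a, rose in macrophage-like nuclei (0.63, SE 0.16, edgeR's adjusted p = 0.00757). Cxcl12 in endothelial-like nuclei (-0.23, edgeR's adjusted p = 0.318) and Elmo1 in lymphatic endothelial-like nuclei (-0.18, edgeR's adjusted p = 0.575) were not called.

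With enpatoran 12 of the 32 listed genes were called lower over all nuclei and 0 higher, with a median log2 change of -0.45 against -0.01 over all genes, of which 9.63% were called lower and 7.32% higher. In fibroblast-like nuclei 3 of 19 were called lower and 1 higher, against 5.89% and 3.80% of all genes. In macrophage-like nuclei 2 of 30 were called lower and 1 higher, near the 3.31% and 2.78% of all genes, and in neutrophil-like nuclei 0 of 27 were called. Ppbp and Pf4 in macrophage-like nuclei had log2 changes of -0.13 and 0.11 (edgeR's adjusted p = 0.871 and 0.817), at 31.9 ± 7.37 and 197 ± 21.5 CPM. Il1r1 in fibroblast-like nuclei was at 518 ± 37.2 CPM (-0.65, SE 0.21, edgeR's adjusted p = 0.0698). The adhesion genes in endocardial-like nuclei were not called. Their log2 changes were -0.97 for Selp, 1.36 for Sele and 0.18 for Icam1 (edgeR's adjusted p = 0.388, 0.367 and 0.811). In neutrophil-like nuclei, where none was called, Gnai2, an inhibitory G protein subunit below CXCR2, was at 234 ± 37.9 CPM in NS-I/R and 453 ± 68.0 CPM with enpatoran (0.94, SE 0.24, edgeR's adjusted p = 0.0504). Cxcr4, which holds neutrophils in the marrow, was at 27.9 ± 7.31 and 70.2 ± 4.07 CPM (1.27, SE 0.39, edgeR's adjusted p = 0.0880).

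The genes whose level was most like that of each member were read over 96 sums of a class in a library, across 13 classes and 11610 genes, by Pearson's r of log2(CPM + 1). Cxcl1 was most like Cxcl5 (r = 0.83), Sphk1 (0.81) and Prg4 (0.80), and Cxcl5 most like Cxcl1, Prg4 (0.81) and Pprc1 (0.80). Cxcl2 and Cxcl3 were most like each other (r = 0.89), followed for both by Cd300lf, at 0.88 and 0.88, and Adam8, at 0.87 and 0.85. Cxcr2 was most like Mmp9 (0.90), Rab44 (0.88) and Il1r2 (0.88). The members thus paired as Cxcl1 with Cxcl5 and Cxcl2 with Cxcl3, while Cxcr2 had r of 0.48 with Cxcl1 and 0.70 with Cxcl2. The sums share libraries and background RNA, and these correlations are descriptions.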

How the data were processed

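Heart nuclei in 9 libraries were sequenced with the 10x Genomics 3' v3.1 chemistry, per the labels' protocols. The deposited values are raw UMI counts per gene and barcode. Per the file headers they came from Cell Ranger 8.0.0, whereas the submitters' processing notes name Cell Ranger 6.1.1, Seurat and the builds GRCh38 and GRCm39; which annotation was used and whether intron reads were counted is not given in the sources used here. The members and gene lists were chosen with earlier results of these data known.

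Barcodes with at least 500 genes and at most 5% mitochondrial UMIs were kept (11.8% to 23.7% per library exceeded that limit). Scrublet scores (scanpy 1.11.5) ranked doublets, and the top 0.8% per 1000 barcodes, 133 to 538 per library, were removed, because Scrublet's own threshold called few in most libraries. Clusters came from 2000 variable genes without the members and pathway genes, 30 components, 15 neighbours and Leiden resolution 1. A class name needed at least 3 markers detected in 5% of nuclei at 2 times the median over clusters and a lead of 0.5 in log2; these limits were chosen with the data in view.

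Counts were summed per library and class with at least 25 nuclei in every library and compared by the quasi-likelihood test of edgeR 4.0.16, with its filterByExpr filter, TMM factors and Benjamini-Hochberg adjustment over all tested genes (threshold 0.05), in 1 fit of the 9 libraries (6 for neutrophil-like nuclei), checked on simulated data. Alternatives were DESeq2 1.42.0, its size factors, no low-count filter, 20% mitochondrial UMIs, doublets kept, Leiden resolution 2, the 6 libraries of a contrast, a replicate block and each library left out. Named genes are the 5 members, up to 3 pathway genes per role and contrast with the smallest adjusted p in the class of their highest mean, and the 3 genes most like each member over genes averaging 5 CPM or more. Some of the pathway genes so chosen are not printed. The labels do not say that libraries came from separate animals, so p-values measure the spread between these libraries.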

Additional observations from a re-analysis of the deposited data

Results flagged for a closer look

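The change with enpatoran differed between classes for 2 genes, tested with an interaction term in pairs of classes chosen after the values were seen. For Cxcl2 the difference was -2.31 in log2 between fibroblast-like and macrophage-like nuclei and -1.64 between fibroblast-like and neutrophil-like nuclei. For Cxcr2 it was -2.40 between macrophage-like and neutrophil-like nuclei, where the change was not called in either class and macrophage-like levels were low.

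The 5 genes were also read in barcodes outside the comparisons, those with 5% to 20% mitochondrial UMIs, of which there were 1846 in NS-I/R, 2299 in Enpa-I/R and 2286 in sham. In NS-I/R these barcodes held 62.7 ± 37.4 CPM of Cxcl1 (SD, n = 3), against 1.48 ± 1.13 in sham and 14.1 ± 4.07 in Enpa-I/R. Cxcl2 was at 169.9 ± 95.5 CPM in NS-I/R, 0.136 in sham and 21.1 ± 3.93 in Enpa-I/R. Cxcl3 was at 119.6 ± 10.3 CPM in NS-I/R, 0 in sham and 17.6 ± 5.93 in Enpa-I/R. Cxcl5 was at 93.6 ± 30.6 CPM in NS-I/R, 0.762 in sham and 24.0 ± 10.7 in Enpa-I/R. Cxcr2 was at 28.1 ± 12.7 CPM in NS-I/R, 0.267 in sham and 7.83 ± 3.30 in Enpa-I/R. The Enpa-I/R and NS-I/R libraries did not overlap for any of the 5. How many of all genes also separated was not counted, and no test was run on these barcodes.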

How the results depend on the processing

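Every rise with NS-I/R and every fall with enpatoran that was called kept its direction in all alternatives run; over members, units and settings, the called falls stayed past the threshold in 310 repeats and missed it in 76. Counts of calls moved as follows, without the shares of all genes called in the same fits beside them. By class, the NS-I/R count of 23 became 35 of 40 with no low-count filter, and 24 to 28 with 1 library left out. The enpatoran count of 18 ranged from 5 to 21 with 1 library left out, and the all-nuclei count of 5 from 3 to 5. In neutrophil-like nuclei the 0 called lower became 1 with doublets kept, 2 with the 20% mitochondrial limit, 3 with no low-count filter and 0 to 3 with 1 library left out. Replicate numbers did not pair the libraries (same-number correlations from -0.13 to 0.04), and a replicate block gave 3 calls in neutrophil-like nuclei, 16 by class and 4 over all nuclei.

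Of 45 class and member shares of nuclei with a UMI, 21 were lower in Enpa-I/R than in NS-I/R without overlap. With thinning to 500 UMIs it was 13. With 1 library left out it was 22 to 30 (29 to 33 for NS-I/R against sham), but groups with fewer libraries separate more easily. The same count over all genes was not made, so these counts are descriptions. The fibroblast-like share of Cxcl1 UMIs, 74.8%, was 68.3% with doublets kept and 71.5% with the 20% limit, that of Cxcl5, 82.9%, was 76.5% and 79.1%, and the macrophage-like share of Cxcl3, 40.8%, was 48.6% with the 20% limit. The neutrophil-like share differed by 8.53 to 10.0 percentage points for NS-I/R and by -7.62 to -5.76 for enpatoran with 1 library left out.

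Signs turned, with 1 library left out, in results that were not called. The log2 change of Cxcl5 in pericyte-like nuclei ran from -0.56 to 0.033 (without NS-I/R replicate 3). Among class differences, fibroblast-like minus macrophage-like Cxcl5 ran from -1.03 to 0.076. Fibroblast-like minus neutrophil-like Cxcl3 ran from -1.08 to 1.19 and Cxcl5 from -0.67 to 0.36. Fibroblast-like minus pericyte-like Cxcl1 ran from -0.081 to 0.63 and Cxcl3 from -0.94 to 0.35. Macrophage-like minus neutrophil-like Cxcl3 ran from -0.29 to 1.59. The cause was not tested. Depth limits the low classes, where a member is at a few UMIs per library.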
